A study of Caenorhabditis elegans with 2 samples.

Results

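The nuclear pore and nuclear transport genes described here are the 42 genes whose WormBase symbol begins with npp, ran, imb, ima, xpo or nxf followed by a number, out of 46748 genes in the deposited count table. They comprise 26 nucleoporin genes (npp), 5 ran genes, 3 importin alpha genes (ima), 3 importin beta family genes (imb), 3 exportin genes (xpo) and 2 mRNA export receptor genes (nxf). Messenger RNA was sequenced from whole hermaphrodites of wild-type Caenorhabditis elegans (N2 in the sample titles) at 5 days of age on heat-inactivated OP50, the usual laboratory Escherichia coli food. Both libraries belong to that 1 group, so the design holds no contrast between conditions, and the replicate numbers are names given in accession order. Whether the libraries stem from separate cultures is not stated in the labels, and SDs here may measure technical spread alone. The p-values hold counting noise alone.

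Nuclear pores are the channels through the nuclear envelope, built from many copies of a set of proteins called nucleoporins that form stacked rings, a central channel, cytoplasmic filaments and a nuclear basket. Cargo crosses with soluble receptors, the importins and exportins, whose loading and release are set by the small GTPase Ran, which is charged with GTP on chromatin and hydrolyses it in the cytoplasm. In C. elegans the pore is best known from oocytes and early embryos, where the envelope is taken apart and rebuilt at every rapid division and maternal transcripts supply the parts.

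The libraries held 28164638 counts (replicate 1) and 31271070 counts (replicate 2), of which 97.0% and 97.9% fell on protein-coding genes. Oocyte markers were abundant, and sperm markers other than spe-44 scarce. The 11 germline and oocyte markers had a median of 527 CPM per kb, and of 7 sperm markers 2 reached 10 counts in both libraries. Summed over each list, germline and oocyte markers held 15183 and 14747 CPM in replicates 1 and 2, and sperm markers 23.1 and 22.9 CPM, of which spe-44 gave 21.9 and 22.1 CPM. The level of spe-44, a transcription factor gene, was 13.4 and 13.6 CPM per kb. Intestinal markers held 51974 and 52347 CPM, most of it yolk protein transcripts, muscle markers 1094 and 996 CPM, neuronal markers 171 and 186 CPM, of which snb-1 gave 148 and 162 CPM, and hypodermal markers 54.6 and 47.6 CPM, of which col-19 gave 49.96 and 45.3 CPM. Of the 4 hypodermal markers, the cuticle collagen genes col-12 (38 and 19 counts) and rol-6 (43 and 20 counts) differed at least 2-fold between the libraries by the test given below. Of all genes tested 0.82% did. At any fold, 5 germline and oocyte, 3 muscle, 3 hypodermal and 2 intestinal markers were higher in replicate 1. Lower in replicate 1 were 1 intestinal and 1 neuronal marker, and 11.6% of all genes tested passed that way in either direction. CPM are counts divided by the library's total and multiplied by 1000000, computed here from the deposited counts, and CPM per kb are CPM divided by the gene's exon length in kilobases, the scale on which genes are compared below.

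Nearly all nuclear pore and transport transcripts were abundant. All 42 members had at least 10 counts in both libraries, a mark reached by 62.5% of the 19641 protein-coding genes of the count table. Their median level was 79.7 CPM per kb (79.5 CPM per kb in each library), against 11.5 ± 0.202 CPM per kb for the 12268 detected protein-coding genes (SD of the medians of the 2 libraries). The level of 41 of the 42 members lay above that median of the detected genes, where 50% of the detected genes lie by construction, and npp-26 was the exception. The third quartile of the detected genes, 44.97 CPM per kb, was exceeded by 38 members, against 25% of the detected genes. The 4 members under it were npp-24, npp-25, npp-26 and xpo-3, and 16 members lay above 97.6 CPM per kb, which 10% of the detected genes exceed. These are whole animals, so a low level in many cells cannot be told apart from a high level in few.

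**Figure D1:**
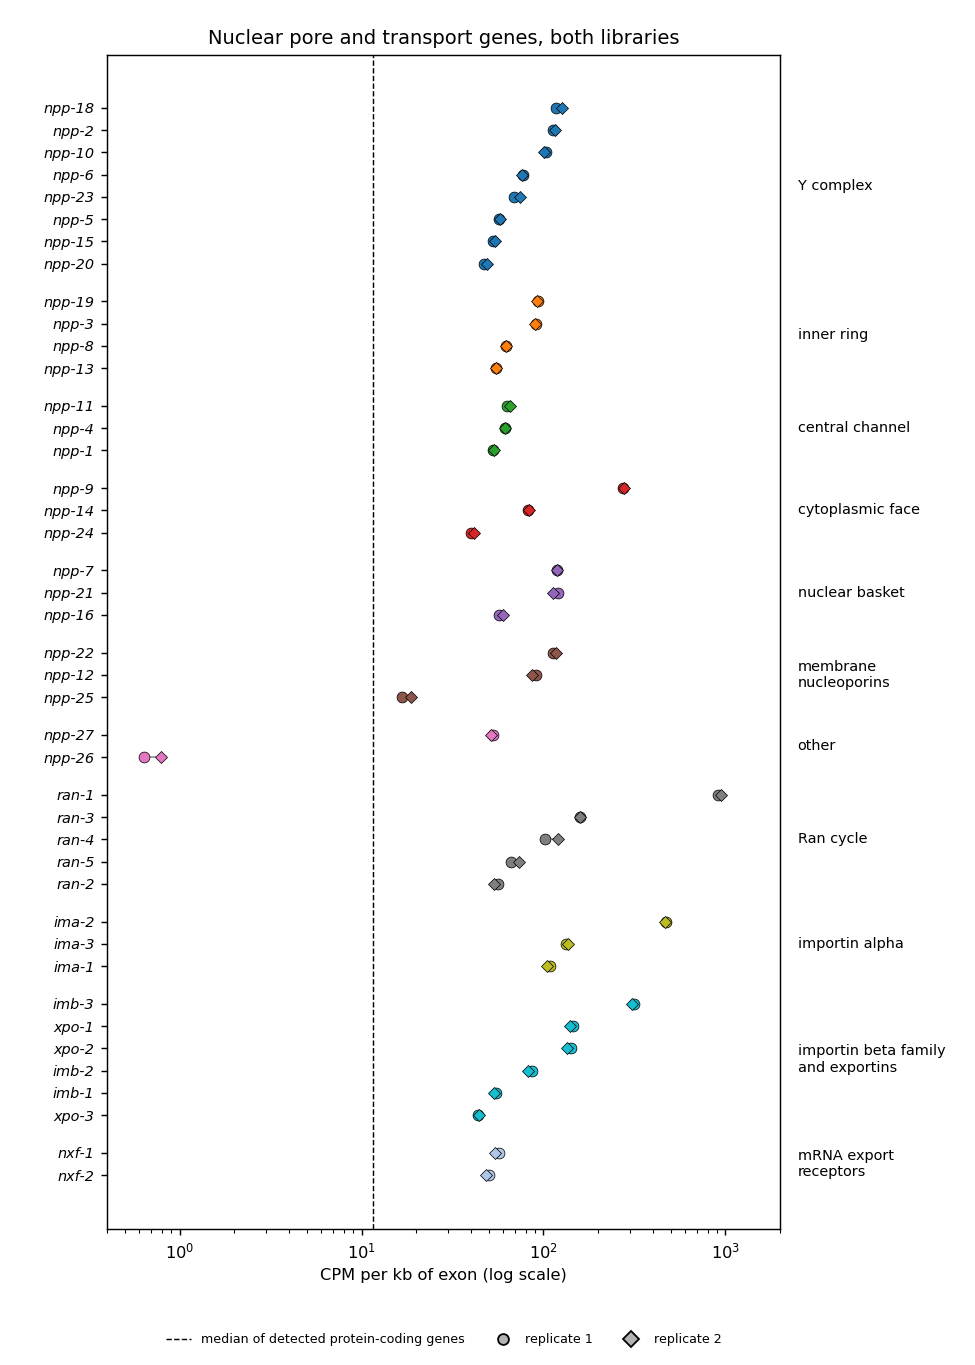
Level of each of the 42 members in replicate 1 (circles) and replicate 2 (diamonds) in CPM per kb of exon on a log scale, grouped by role, with the median of the detected protein-coding genes as a dashed line. All members but npp-26 lie right of that line, and the symbols of a gene nearly coincide.

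The members together took 1.290% of all counts in replicate 1 (95% Wilson interval 1.286% to 1.294%) and 1.282% in replicate 2 (1.278% to 1.286%). The share of nucleoporins was 0.683% in replicate 1 and 0.682% in replicate 2, and that of the Ran, importin, exportin and mRNA export genes was 0.607% and 0.5997%. The smaller set of 16 transport genes thus held nearly as many reads as the 26 nucleoporins, with a median of 109 ± 4.69 CPM per kb against 67.9 ± 2.74 CPM per kb for the nucleoporins. The intervals cover counting error alone.

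**Figure D2:**
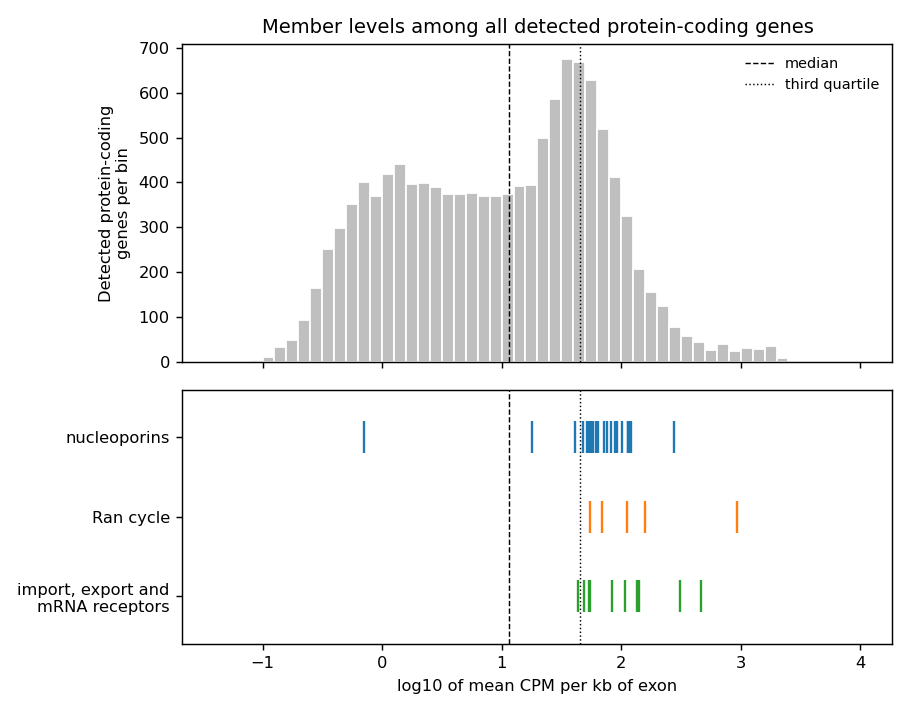
The upper panel counts the 12268 detected protein-coding genes by the log10 of their mean CPM per kb, and the lower panel marks each member on the same axis. All but 4 members lie right of the third quartile (dotted line), under the upper hump of the distribution.

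Among the nucleoporins, levels were alike across most of the pore. Of the 26 genes, 23 lay within 2-fold of the nucleoporin median, from 33.96 to 136 CPM per kb, a window that held 25.4% of all detected protein-coding genes. The 3 genes outside were npp-9 above the window and npp-25 and npp-26 below it. These are transcript levels, and nothing was measured of the proteins.

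The Y complex, the scaffold of the outer rings that coats both faces of the pore, had a median of 74.1 ± 1.601 CPM per kb over 8 genes. Its levels spanned 2.53-fold. The highest was npp-18, which encodes the Seh1 subunit (WBGene00003804, chromosome III, 13296853 to 13298993), with 117 CPM per kb in replicate 1 and 127 CPM per kb in replicate 2. The lowest was npp-20, which encodes Sec13, a protein shared with the coat of vesicles leaving the endoplasmic reticulum, with 47.3 and 49.0 CPM per kb. Between them stood npp-2 (the gene of the Nup85 subunit) with 113.5 and 115.2 CPM per kb and npp-10, whose product is cut into a channel nucleoporin and a scaffold nucleoporin, with 104 and 101 CPM per kb. Then came npp-6 (77.1 and 76.6 CPM per kb), npp-23 (68.9 and 73.9 CPM per kb), npp-5 (56.9 and 57.5 CPM per kb) and npp-15 (53.2 and 54.5 CPM per kb), all scaffold subunits. Transcripts of subunits that the complex holds together therefore did not stand at 1 level, since npp-18 exceeded npp-15 by 2.26 ± 0.0888-fold per kb in these libraries. With the lengths behind the authors' RPKM, after rescaling to the library totals, npp-2 was highest on average, with 112.95 and 114.6 RPKM, and npp-18 had 106 and 115.5 RPKM.

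The inner ring, which lines the membrane side of the channel, was more even. Its 4 genes had a median of 76.5 ± 0.546 CPM per kb and spanned 1.69-fold. The gene npp-19, whose product is needed to build the pore around chromatin, had 93.0 and 92.7 CPM per kb, and npp-3, which encodes a large ring protein, had 91.4 and 89.97 CPM per kb. The other two were lower, npp-8 with 62.4 and 62.3 CPM per kb and npp-13 with 55.0 and 55.1 CPM per kb. The order of npp-19 and npp-3 depends on the length used, since with the authors' lengths npp-19 had 88.7 and 88.5 RPKM and npp-3 had 94.2 and 92.8 RPKM after rescaling.

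The central channel nucleoporins, which carry the phenylalanine and glycine repeats that receptors bind, were the most even of the pore groups. The levels of npp-11, npp-4 and npp-1 spanned 1.21-fold, with a group median of 61.5 ± 0.221 CPM per kb. Replicates 1 and 2 gave 63.0 and 65.8 CPM per kb for npp-11, the relative of vertebrate Nup62, 61.3 and 61.7 CPM per kb for npp-4, and 53.0 and 53.8 CPM per kb for npp-1. All 3 proteins sit in 1 complex in the channel, and the level of npp-11 was 1.05 ± 0.0278 times that of npp-4 and the level of npp-1 0.868 ± 0.00657 times that of npp-4. These ratios depend on the length used. With the authors' lengths, after rescaling, npp-11 had 61.03 and 63.69 RPKM, npp-4 61.21 and 61.52 RPKM and npp-1 59.12 and 60.06 RPKM. The order of npp-11 and npp-4 then differed between the libraries, and npp-1 lay closer to npp-4.

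The cytoplasmic face held the nucleoporin with the highest level. The gene npp-9 (WBGene00003795, chromosome III, 3400638 to 3404479), the C. elegans relative of the Ran-binding filament protein RanBP2, had 273 and 277 CPM per kb in replicates 1 and 2. It stood 3.33 ± 0.0102 times above npp-14, a repeat nucleoporin of the same face, which had 81.9 and 83.3 CPM per kb. The gene npp-24, which encodes the Nup88 relative, was lowest, with 40.04 and 41.5 CPM per kb. The 3 genes kept this order in both libraries with wide gaps.

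In the nuclear basket, npp-7 and npp-21 were alike and npp-16 lower. The Nup153 relative npp-7 had 118.6 and 118.9 CPM per kb. The gene npp-21, which encodes the long coiled-coil protein of the basket, had 120 and 113 CPM per kb, a range that encloses that of npp-7. With the authors' lengths npp-21 had 119 and 113 RPKM and npp-7 109.4 and 109.6 RPKM after rescaling, ranges that did not overlap. The gene npp-16, whose product takes part in releasing importin alpha from its cargo, had 57.1 and 59.7 CPM per kb, 0.491 ± 0.0149 of the level of npp-7. The basket had the highest median of the pore groups, 117 ± 3.79 CPM per kb.

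Nucleoporins that sit in the membrane held both a high and a low gene. The gene npp-22, which encodes the Ndc1 relative, had 112 and 117 CPM per kb, and npp-12, which encodes the gp210 relative with a large domain in the lumen of the envelope, had 90.6 and 86.9 CPM per kb. The gene npp-25 (WBGene00012555, chromosome III, 12920266 to 12925997) had 989 and 1232 counts, or 16.8 and 18.8 CPM per kb. Its exon length is 2094 bases in the annotation used with a coding length of 813 bases, and the lengths behind the authors' RPKM give it 42.2 and 47.3 RPKM after rescaling to the library totals. Either way its level lay above the median of the detected genes, but its distance from the other nucleoporins depends on the length used.

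Among the nucleoporin genes left without a role here, npp-27 had 52.5 and 51.7 CPM per kb, near the lowest of the scaffold genes. The gene npp-26 (WBGene00021198, chromosome IV, 4764722 to 4767956, 1620 exon bases) was far below every other member, with 29 counts in replicate 1 and 40 counts in replicate 2. That is 0.636 and 0.790 CPM per kb, a mean of 0.713 ± 0.109 CPM per kb, under which 11.9% of the detected protein-coding genes lay. The next lowest count of any member was 989, so npp-26 was the only member with few reads.

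The Ran cycle was headed by Ran itself. The gene ran-1 (WBGene00004302, chromosome III, 10746581 to 10747728) had the highest level of all members, 916 and 945 CPM per kb in replicates 1 and 2, and 99.0% of the detected protein-coding genes lay below it. The gene ran-3 encodes the exchange factor on chromatin that loads Ran with GTP (the RCC1 relative), and it had 158.6 and 159.7 CPM per kb. The gene ran-2 encodes the GTPase-activating protein that ends the cycle (the RanGAP relative), and it had 56.4 and 53.4 CPM per kb, the lowest of the group. Per kb, Ran transcripts stood 5.84 ± 0.102 times above those of the exchange factor and 16.97 ± 1.03 times above those of the activating protein. With the lengths behind the authors' RPKM, ran-1 had 732 and 756 RPKM after rescaling. On that scale ran-3 had 160.05 and 161.07 RPKM and ran-2 54.02 and 51.16 RPKM. Both ratios are then smaller, and they depend on the length used beyond the SDs given.

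The other two members of the group lay between the exchange factor and the activating protein. The gene ran-4, the relative of the import factor NTF2 that carries Ran back into the nucleus, had 103 and 120 CPM per kb. As a ratio, that gap between the libraries was the widest of the group. The gene ran-5 had 66.2 and 73.1 CPM per kb. Ran-1 held 70.2% ± 0.365 of the summed level of the 5 genes, ran-3 12.01% ± 0.273, ran-4 8.38% ± 0.687, ran-5 5.25% ± 0.223 and ran-2 4.14% ± 0.272, an order in which no neighbours overlapped between the libraries. These shares also depend on the length used.

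**Figure D3:**
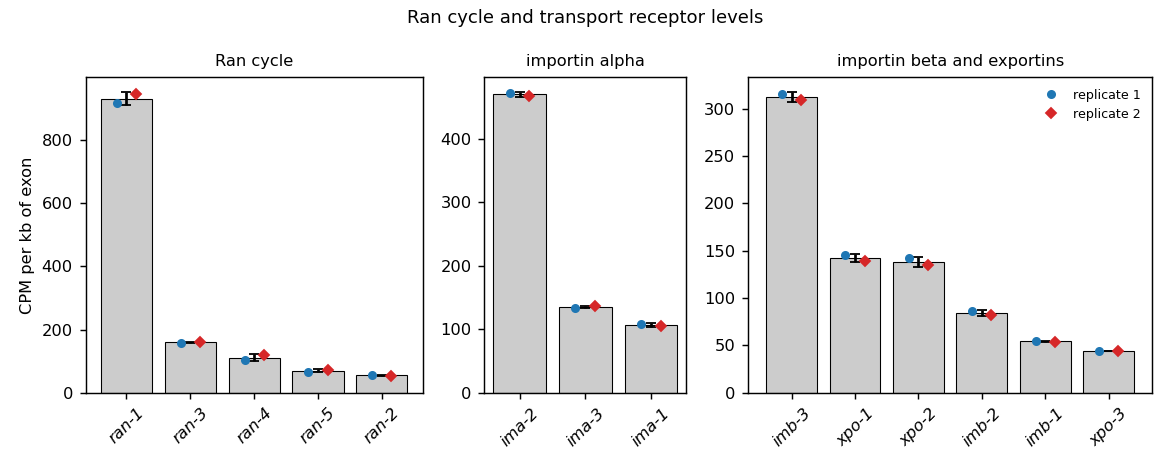
Levels of the Ran cycle, importin alpha, and importin beta and exportin genes in CPM per kb of exon, each panel with its own axis from 0. Bars are means of the 2 libraries with SD, and points are the libraries. In each panel 1 gene stands well above the others (ran-1, ima-2 and imb-3).

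Importin alpha proteins read the classical nuclear localization signal and bind importin beta. In C. elegans, ima-1 and ima-2 are known from the germ line and ima-3 is used more widely. The level of ima-2 (WBGene00002073, chromosome I, 6315233 to 6317262) was 472 and 467 CPM per kb in replicates 1 and 2. The gene ima-3 had 134 and 136 CPM per kb, and ima-1 had 109 and 105 CPM per kb. The gene ima-2 thus made up 66.0% ± 0.0782 of the summed importin alpha level, against 18.96% ± 0.365 for ima-3 and 15.02% ± 0.287 for ima-1, and no ranges overlapped. It stood 3.48 ± 0.0712 times above ima-3 and 4.40 ± 0.0788 times above ima-1 per kb.

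Among the importin beta family and the exportins, imb-3 was highest and the classical importin beta gene was among the lowest. The gene imb-3 (WBGene00002077, chromosome I, 310981 to 314989), the relative of the importin that in yeast carries ribosomal proteins and histones, had 316 and 309 CPM per kb. It also had the most reads of any member, 33014 and 35840 counts. The gene imb-1, importin beta itself, had 54.6 and 53.8 CPM per kb. The level of imb-3 was 5.76 ± 0.0372 times that of imb-1, and the level of imb-1 was 0.115 ± 0.000195 of that of ima-2, the importin alpha gene with the highest level. The gene imb-2, which encodes transportin, a carrier of RNA-binding proteins, had 86.5 and 82.4 CPM per kb.

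The exportins also differed. The gene xpo-1, which encodes the receptor for leucine-rich export signals, had 145 and 139 CPM per kb, and xpo-2, which returns importin alpha to the cytoplasm, had 142.2 and 134.5 CPM per kb. Their ranges over the libraries overlapped, although xpo-1 was the higher of the pair in each library. The gene xpo-3, the relative of the tRNA exportin of other animals, had 43.8 and 44.1 CPM per kb and was the lowest of the 6 receptors. The level of xpo-1 was 3.24 ± 0.113 times that of xpo-3. As shares of the summed level of the 6 receptors, imb-3 held 40.3% ± 0.284, xpo-1 18.3% ± 0.121, xpo-2 17.8% ± 0.292, imb-2 10.9% ± 0.125, imb-1 6.99% ± 0.0944 and xpo-3 5.67% ± 0.160.

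Bulk mRNA leaves the nucleus with another kind of receptor. The gene nxf-1, the main mRNA export receptor, had 56.7 and 54.1 CPM per kb, and its family member nxf-2 had 49.99 and 48.3 CPM per kb. Levels of nxf-1 and nxf-2 differed by 1.13 ± 0.0101-fold per kb. With the authors' lengths nxf-1 had 75.7 and 72.1 RPKM after rescaling, so the gap between them depends on the length used. The 2 genes are relatives on the same strand of chromosome V, and the handling of reads that match both is not stated in the labels.

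Pore and transport genes that carry other symbols were not counted as members. The 3 looked up, chosen for their known roles, were abundant as well. The gene mel-28, which encodes the ELYS protein that seeds pores on chromatin, had 86.8 and 84.03 CPM per kb in replicates 1 and 2. The gene rae-1, formerly named npp-17, which binds the export machinery at the pore, had 75.6 and 82.6 CPM per kb. C35A5.8, named xpo-7 in RefSeq, had 118 and 114 CPM per kb.

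Genes that work next to the pore were mostly above the typical gene too. All 13 genes of the nuclear envelope list, which holds mel-28, the lamina, LEM-domain and nuclear anchorage genes, were detected, with a median of 60.2 ± 1.56 CPM per kb, and 11 of the 13 lay above the median of the detected genes. The lamin gene lmn-1 had 212 and 218 CPM per kb, and baf-1, whose product bridges chromatin and the envelope, 204 and 207 CPM per kb. Those under the median were unc-83 (7.03 and 7.01 CPM per kb) and the giant anchorage gene anc-1 (1.84 and 1.499 CPM per kb), both of which tether nuclei to the cytoskeleton. All 13 matched mRNA export partners were detected and above that median, at a median of 104 ± 5.18 CPM per kb, from thoc-1 (13.8 and 14.8 CPM per kb) to the adaptor gene aly-2 (351 and 381 CPM per kb). The helicase gene hel-1 had 349.8 and 350.1 CPM per kb, and nxt-1, the partner of NXF receptors, had 109 and 119 CPM per kb. Of 9 SUMO pathway genes, whose enzymes act in part at the pore, all were detected and above it, with a median of 73.4 ± 1.48 CPM per kb, and smo-1, the SUMO gene, had 952 and 938 CPM per kb. By the test given below, no gene of these 3 lists differed at least 2-fold between the libraries. Of all genes tested 0.82% did, a share at which few or none of these lists would. At any fold, 3 genes of the nuclear envelope list passed, higher in replicate 1. Lower in replicate 1 were 2 mRNA export partners and 1 SUMO pathway gene, and 11.6% of all genes tested passed that way in either direction.

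The members were spread over chromosomes I to V, and the symbol rule did not use position in the genome. None of the 42 lay on the X chromosome, which holds 14.5% of the detected protein-coding genes. Chromosome I held 13 members, chromosomes II, III and IV 8 each and chromosome V 5, against 2030, 2102, 2027, 2003 and 2313 detected protein-coding genes on those chromosomes. Detected protein-coding genes on X had a median of 4.25 CPM per kb, against 26.98 CPM per kb on chromosome I and 6.10 CPM per kb on chromosome V. Whether absence from X is particular to the members or shared by other genes of their level was not tested. Members were abundant on each chromosome that held any, with medians from 52.8 CPM per kb on chromosome IV to 107 CPM per kb on chromosome V.

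Member genes were also longer than the typical gene, with a median exon length of 2609 bases (635 to 6109) against 1447 bases for the detected protein-coding genes. Length and level were not related within the group. Across the 42 members, the log2 level per kb and the log2 exon length had a Pearson correlation of 0.03 (Spearman 0.09), and across the 12268 detected protein-coding genes of -0.07 (Spearman -0.05). These are descriptions across genes of the same libraries, and the length enters both measures. A single annotated transcript was listed for 22 of the members, or 52.4%, against 60.6% of the detected genes.

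Some members lay side by side or close to each other. The genes npp-15 and ran-2 are neighbours on the same strand of chromosome III, 479 bases apart, and their levels, 53.8 ± 0.971 and 54.9 ± 2.11 CPM per kb, did not differ beyond their spread. The genes imb-3 and xpo-2 are adjacent protein-coding genes on the same strand of chromosome I, 3559 bases apart, yet their levels were 312 ± 4.97 and 138 ± 5.44 CPM per kb. On chromosome V, nxf-1 and nxf-2 lie 1052 bases apart with 1 protein-coding gene between them, and on chromosome IV npp-27 and xpo-3 lie 6441 bases apart with 2 between them. The exons of 18 members overlapped those of another gene, by at most 9.91% of the exon length (ran-1). Exons on the same strand overlapped for 5 members and exons on the opposite strand for 14. The labels do not state how reads from such stretches were counted.

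Between the libraries, the members differed by small folds. For each gene the counts of replicate 1 were set against those of replicate 2 with a two-sided exact binomial test, adjusted (Benjamini-Hochberg) over the 14397 genes whose summed counts reached 10. A call needed a difference of 2-fold or more with an adjusted p under 0.05. The test holds counting noise alone and compares 2 libraries of 1 group, not conditions. No member was called, against 0.82% of all genes tested, a share at which few or none of 42 genes would be called. An unadjusted p under 0.05 was found for 18 of the 42 members, a larger share than the 21.4% of all genes. Nearly all members held more reads than most genes, and the share among genes of like read number was not tested. Log2 ratios of replicate 1 over replicate 2 ran from -0.29 to 0.10 over the members, with a median of 0.01, and the largest difference was 1.22-fold. Of the 42 ratios, 40 lay within 0.2 of 0, against 72.7% of the detected protein-coding genes. The median coefficient of variation of a member's CPM was 2.08%, against 4.87% for the detected protein-coding genes, a set that includes many genes with fewer reads.

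Without the minimum fold, 12 members passed, 9 higher and 3 lower in replicate 1. Among all genes tested a smaller share, 11.6%, passed that way, 5.8% higher and 5.78% lower in replicate 1. All genes tested include many with few reads, and here too genes of like read number were not set apart. The 3 lower members were short. They were ran-4 (log2 ratio -0.21, 95% interval -0.29 to -0.12, exact binomial adjusted p = 0.000114), ran-5 (log2 ratio -0.13, -0.20 to -0.05, exact binomial adjusted p = 0.018) and npp-18 (log2 ratio -0.10, -0.16 to -0.04, exact binomial adjusted p = 0.0103). The 9 higher ones were npp-21, xpo-2, ran-2, imb-2, nxf-1, xpo-1, npp-12, npp-10 and imb-3, with log2 ratios from 0.10 (npp-21, exact binomial adjusted p = 1.17e-10) down to 0.05 (imb-3, exact binomial adjusted p = 0.000215). The widest ratio, -0.29 for npp-26, rested on 29 and 40 counts and had an interval from -1.04 to 0.43 (exact binomial adjusted p = 0.787). The ratio of npp-25 was -0.15 (-0.27 to -0.03, exact binomial adjusted p = 0.105).

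The small differences followed exon length. Of 18 members with over 3 kb of exon, 15 had a ratio above 0, with a median log2 ratio of 0.04. Of 8 members under 1.5 kb, 2 had a ratio above 0, with a median of -0.06, and the 16 of intermediate length had a median of -0.01. Across the 42 members the log2 ratio and the log2 exon length had a Pearson correlation of 0.59 (Spearman 0.58). Across the 5944 detected protein-coding genes with at least 500 counts in both libraries, it was 0.50 (Spearman 0.47), with medians of 0.06 over 3 kb and -0.04 under 1.5 kb. Across all 12268 detected protein-coding genes the correlation was weaker, 0.23 (Spearman 0.30). All points share the same 2 libraries and the same scaling, so the correlations are descriptions, and the part of transcript length in the differences between libraries was not tested further.

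**Figure D4:**
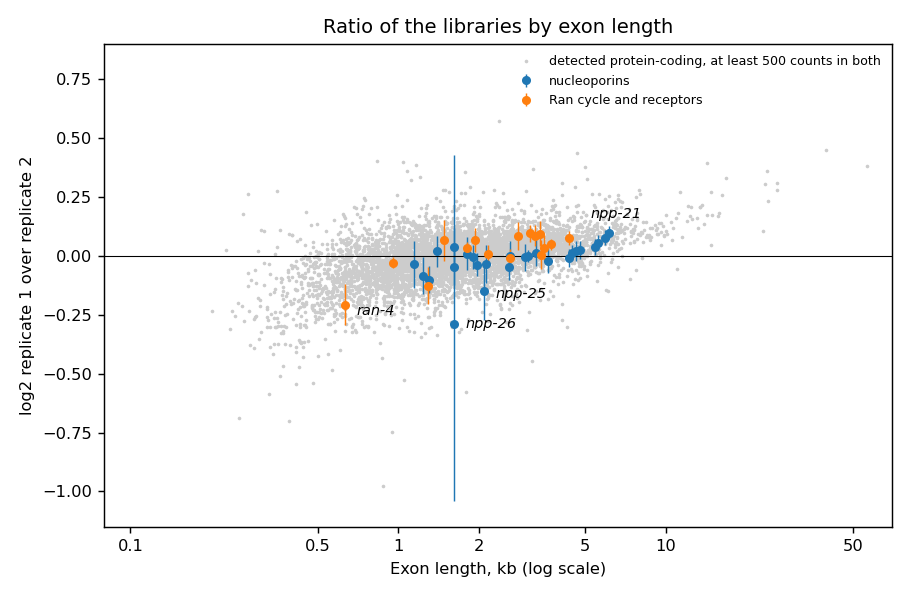
Log2 ratio of replicate 1 over replicate 2 against exon length (log scale) for nucleoporins (blue), Ran cycle and receptor genes (orange), both with 95% exact binomial intervals, and for detected protein-coding genes with at least 500 counts in both libraries (grey). Most members over 3 kb, such as npp-21, lie above 0 and most under 1.5 kb, such as ran-4, below it. Most grey points of these lengths do the same.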

How the data were processed

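The authors deposited raw counts per gene and RPKM for both libraries. Per the submitters' processing notes, STAR 2.4.1d and featureCounts 1.4.6-p4 were used with build WBcel235. Neither the counting options nor the annotation release is stated there. The libraries were prepared with an Illumina mRNA kit, per the labels' protocols.

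Symbols matched 43693 of 46748 gene identifiers, and 46449 had an entry in the Ensembl annotation (release 115, also WBcel235), which gave coordinates and exon lengths (union of exons). Levels were computed from the deposited counts, because the authors' deposited RPKM divide by a read total that changes with the row in 8 repeating classes. Over 5973 genes with more than 500 counts, 100% lay within 0.1% of the ratio of their class, from 0.787 to 1.27, against a ratio of library totals of 0.901. Rescaled RPKM are the deposited values times the total used, over the total of that library. They lay within 2% of CPM per kb for 21 members, and from 0.800 to 2.51 times it in all, as the authors' gene lengths differ from those used here. Library sizes for the binomial test were TMM effective sizes (edgeR 4.0.16), with DESeq2 1.42.0 size factors as an alternative, and 0.5 was added to counts before log2 ratios. The test was checked on simulated counts that held counting noise alone, so the check does not cover other spread between libraries. An edgeR quasi-likelihood test needs a contrast with replicates, which the design lacks. The floor of 3 counts was 0.107 and 0.0959 CPM. Values are mean ± SD of 2 libraries, and the SD of a median is that of the libraries' medians.

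The members and lists were chosen with earlier results of these data known. The rule named every Ran, importin, exportin and mRNA export member, the highest and lowest of each nucleoporin group, and the 5 widest library ratios. The other members are named so that each is accounted for. Protein features planned for the nucleoporins were not analysed here. One name of the mRNA export list (14 names) matched no identifier.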

Additional observations from a re-analysis of the deposited data

How the results depend on the processing

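All 42 members were detected with a minimum of 1 count and with either library alone, and 41 with a minimum of 50 counts. The median level of 79.7 CPM per kb was 79.8 with the longest transcript as length, 83.04 with the deposited RPKM and 193 CPM without division by length. Alternatives chosen after seeing the data gave 76.8 with the rescaled RPKM and 82.6 with rae-1, mel-28 and C35A5.8 added. Leaving out 1 library gave 79.48 to 79.504 CPM per kb. Of the members, 12 differed between the libraries without the minimum fold (11 with library totals, 12 with DESeq2 size factors), and 0 with it under each of the scalings and without the filter on low counts. The medians of all 11 role groups stayed above that of the detected genes in each alternative run. In the group left without a role, that median lies between npp-27 and npp-26, and npp-26 itself lay below the detected genes' median. The order of the group medians changed with length. Without division by length the cytoplasmic face ranked 2 of 11, against 6 per kb. No paired analysis was possible because the libraries form 1 group. Depth limits npp-26 alone among the members.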
